A study of Mus musculus with 11 samples.

Results

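The genes described here encode the subunits of the mouse proteasome and its protein activators. They are Psma1 to Psma7, Psmb1 to Psmb10, Psmc1 to Psmc6, Psmd1 to Psmd14 and Psme1 to Psme4, taken by symbol as a whole set, with no rule on their levels. The set itself was chosen with earlier results of these data known. Of these 41 genes, 40 were measured by a probe set that names a single gene, among 22180 such genes on the array. Psma4 was not analysed here, because it has only probe sets that name several genes. The cells were line 720, a T-ALL (T-cell acute lymphoblastic leukaemia) line of the mouse and a single line that the labels trace to a Tcf12+/- mouse with a Tal1 transgene under the Lck promoter, which is active in thymocytes. All 3 groups carry this background, and all were exposed for 8 h to a compound described as a Runt domain inhibitor (RDI), that is, an agent aimed at the domain with which RUNX factors bind DNA. The AI-7-54 group (100 µM) has 3 arrays, numbered 1, 3 and 4. The AI-8-45 group (100 µM) has 4 and the AI-9-54 group (50 µM) has 4. The compounds are known here by code name only. Vehicle-treated cells were not analysed here, and so each difference is between compounds and none is a response to treatment. Only AI-8-45 and AI-7-54 were used at a matched dose. In both comparisons that involve AI-9-54, compound and dose cannot be told apart.

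The proteasome is the main protease of the cytosol and nucleus and degrades proteins tagged with ubiquitin. Its barrel-shaped core is built from rings of alpha subunits, which gate the entrance, and rings of beta subunits, of which Psmb5, Psmb6 and Psmb7 cut peptide bonds. A cap of ATPases, scaffold and receptor subunits and a lid recognises, deubiquitinates and unfolds the substrate. In lymphoid cells, and after interferon, Psmb8, Psmb9 and Psmb10 can take the place of the constitutive catalytic subunits Psmb5, Psmb6 and Psmb7 to form the immunoproteasome, and the activator Psme1 and Psme2 opens the core without ubiquitin. The transcription factor Nfe2l1 raises subunit genes together when proteasome activity falls short, through antioxidant response elements in their promoters.

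Stretches of 3 promoters are printed because they hold such an element or the CCAAT box that many housekeeping promoters share, and because they belong to genes described below. They are the RefSeq sequence of GRCm38.p6, read 5′ to 3′ on the strand of the gene, and the capitals mark the matched letters. The Psmb5 stretch is chr14:54617996-54618095 on the minus strand, the 100 bases before the start site. The Psmd12 stretch is chr11:107479278-107479377 on the plus strand and the Psmc1 stretch is chr12:100110002-100110101 on the plus strand.
Psmb5: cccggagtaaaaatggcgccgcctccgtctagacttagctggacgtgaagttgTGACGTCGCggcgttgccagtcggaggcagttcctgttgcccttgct
Psmd12: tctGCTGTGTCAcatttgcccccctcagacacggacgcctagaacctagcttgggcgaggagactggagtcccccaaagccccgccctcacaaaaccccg
Psmc1: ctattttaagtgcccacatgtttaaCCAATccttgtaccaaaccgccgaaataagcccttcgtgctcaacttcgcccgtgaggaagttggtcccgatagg

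Windows from 250 bases before to 50 bases after the start were found for 34 of the 40 measured genes, 37 windows in all, and were searched on both strands. The antioxidant response element core TGACNNNGC was in 6 of 37 windows (16.2%), against 12.4% of the 32851 windows of all genes. Those 6 windows belong to Psmb5, Psmb6, Psmc6, Psmd9, Psmd12 and Psme4. CCAAT was in 13 of 37 windows (35.1%), against 37.4% of all windows. The interferon-stimulated element core, GAAA repeated after any 2 bases, was in 4 windows (10.8%), those of Psmb3, Psmd4, Psmd9 and Psme1, against 3.44% of all windows. A match describes the letters and does not show a factor bound there.

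The median of an array was 6.61 to 6.68 (log2). Whether replicates came from separate cultures is not stated in the labels, and the p-values therefore reflect only how much these arrays vary, which may be technical. Arrays numbered 1 or 2 stood apart from arrays numbered 3 or 4, a split that no label names and that is called the replicate set here. The split was incomplete in AI-8-45. Its replicate 4 differed from replicate 3 as much as from replicate 1 (SD of the differences over genes 0.147 for both). AI-7-54 has no replicate 2, so its replicate 1 alone stands for the first set. Deviations from the group means were correlated across genes between arrays of different groups. The median was 0.31 for other numbers in the same set, 0.13 (-0.02 to 0.45) for the same number, and -0.23 for different sets. Deviations within a group sum to 0, so the negative value follows from the positive ones and is no separate sign of the split. Of 15 measured T-cell markers, 12 lay above the median level of all genes (6.91). Of the measured B-cell, myeloid, erythroid, stromal or endothelial and natural killer markers, 1 of 7, 1 of 10, 1 of 3, 4 of 10 and 1 of 5 did so, and 0 of these passed the test in any comparison. At an unadjusted p under 0.05, limma put 0 of them lower and 2 higher between AI-8-45 and AI-7-54, 2 lower and 3 higher between AI-9-54 and AI-7-54, and 4 lower and 2 higher between AI-9-54 and AI-8-45. Of the 15 T-cell markers, 1 fell and 1 rose between AI-8-45 and AI-7-54, 7 fell and 1 rose between AI-9-54 and AI-7-54, and 2 fell and 0 rose between AI-9-54 and AI-8-45 (0 higher without the adjustment in limma). Of all genes, 3.53% were lower and 2.13% higher in the first of these comparisons, 7.29% and 6.87% in the second, and 0.6% and 0.708% in the last. The T-cell marker mean per array was 9.41 to 9.52 with AI-9-54 and 9.65 to 9.82 with AI-7-54. In bulk RNA, fewer cells of a type and less RNA per cell cannot be told apart.

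Part of the proteasome genes were lower with AI-8-45 and with AI-9-54 than with AI-7-54, by 9.9% to 21.2% where they passed the test. Between AI-8-45 and AI-7-54, 6 of 40 genes (15%) fell and 0 rose at an adjusted p under 0.05 (limma, Benjamini-Hochberg over all genes), while 3.53% of all genes were lower and 2.13% higher. Without the adjustment, at p under 0.05, limma put 22 lower and 0 higher. The share of all genes at that unadjusted threshold was not worked out in any comparison. The shares given here are for the adjusted threshold and do not apply to the unadjusted counts in this text. Between AI-9-54 and AI-7-54, 15 of 40 (37.5%) fell and 0 rose, against 7.29% of all genes lower and 6.87% higher, and without the adjustment 25 were lower and 1 higher. The median difference was -0.14 log2 with AI-8-45, a change of -9.27%, and -0.17 with AI-9-54. The median over all genes was 0.0014 and -0.0014. Both comparisons use the same 3 AI-7-54 arrays and so share their error.

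The direction was shared by most of the genes whether or not they passed the test. The difference was below 0 for 38 of 40 genes (95%) with AI-8-45 and for 36 of 40 (90%) with AI-9-54, against 49.3% and 50.7% of all genes. All AI-8-45 arrays lay under all AI-7-54 arrays for 22 of 40 genes (55%), against 9.07% of all genes, and all AI-9-54 arrays did so for 20 (50%), against 12%. The mean level of the 40 genes was 10.44 to 10.51 in the 3 AI-7-54 arrays, 10.29 to 10.38 in the 4 AI-8-45 arrays and 10.24 to 10.38 in the 4 AI-9-54 arrays. These means do not overlap between AI-7-54 and either other compound. The proteasome genes are bright on the array, so the test was repeated on the 11090 genes above the median level alone. Of the 39 proteasome genes among them, 8 fell with AI-8-45 and 18 with AI-9-54, against 9.36% and 16.5% of those bright genes.

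**Figure D1:**
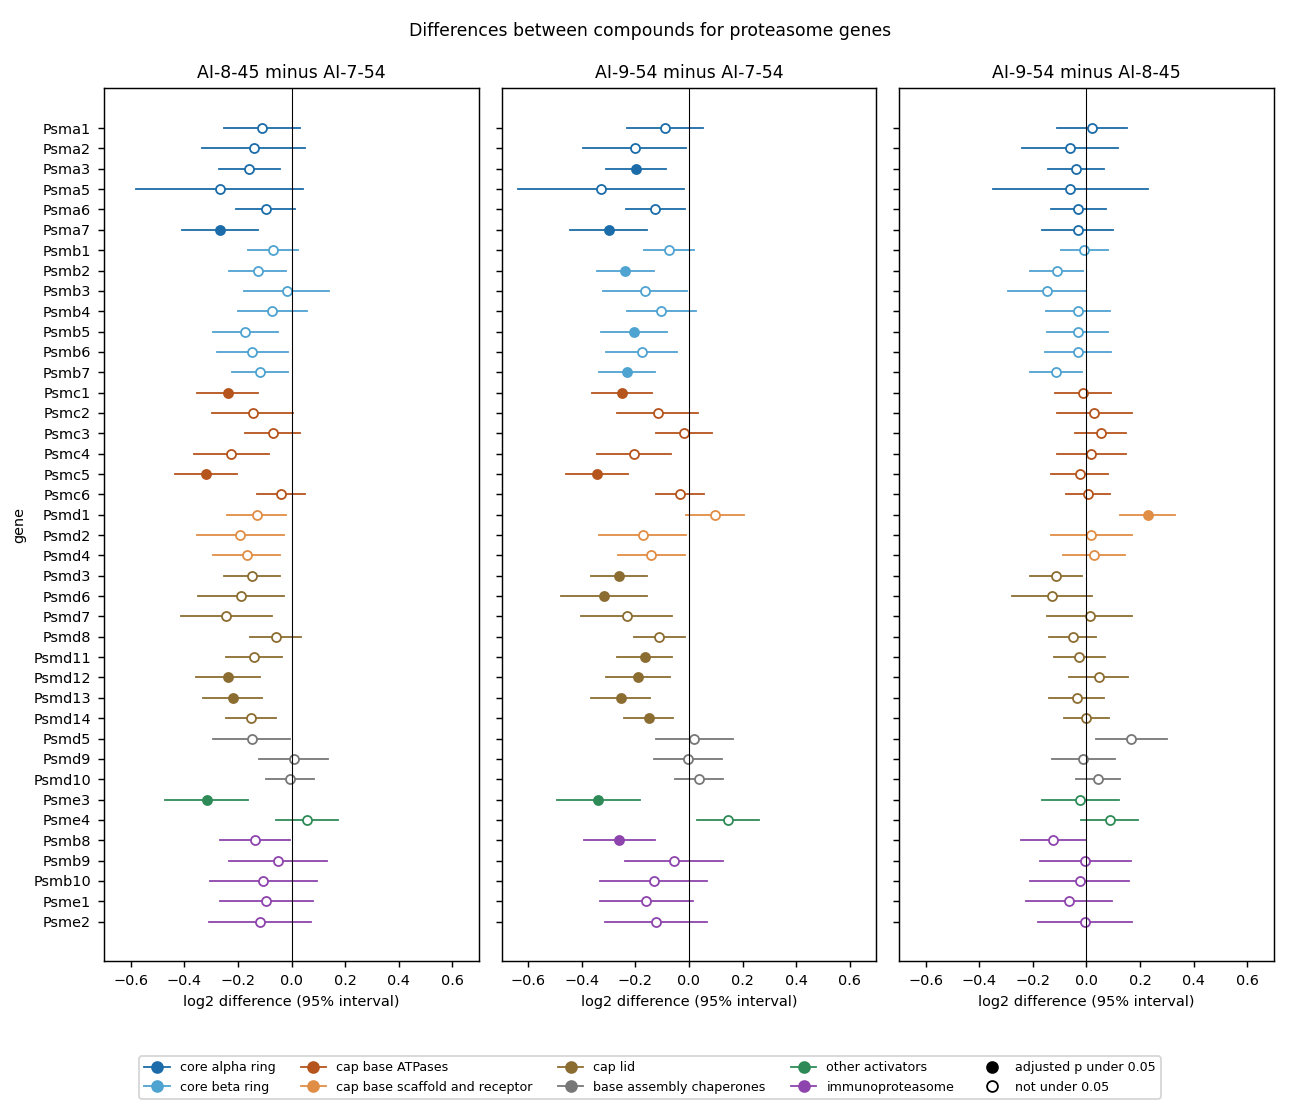
Log2 difference of each of the 40 measured proteasome genes (points) with its 95% interval (lines) in the 3 comparisons, filled where the adjusted p is under 0.05. In both comparisons with AI-7-54 most points lie left of 0, with 6 and 15 filled, and between AI-9-54 and AI-8-45 the points scatter around 0 with Psmd1 alone filled.

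**Figure D2:**
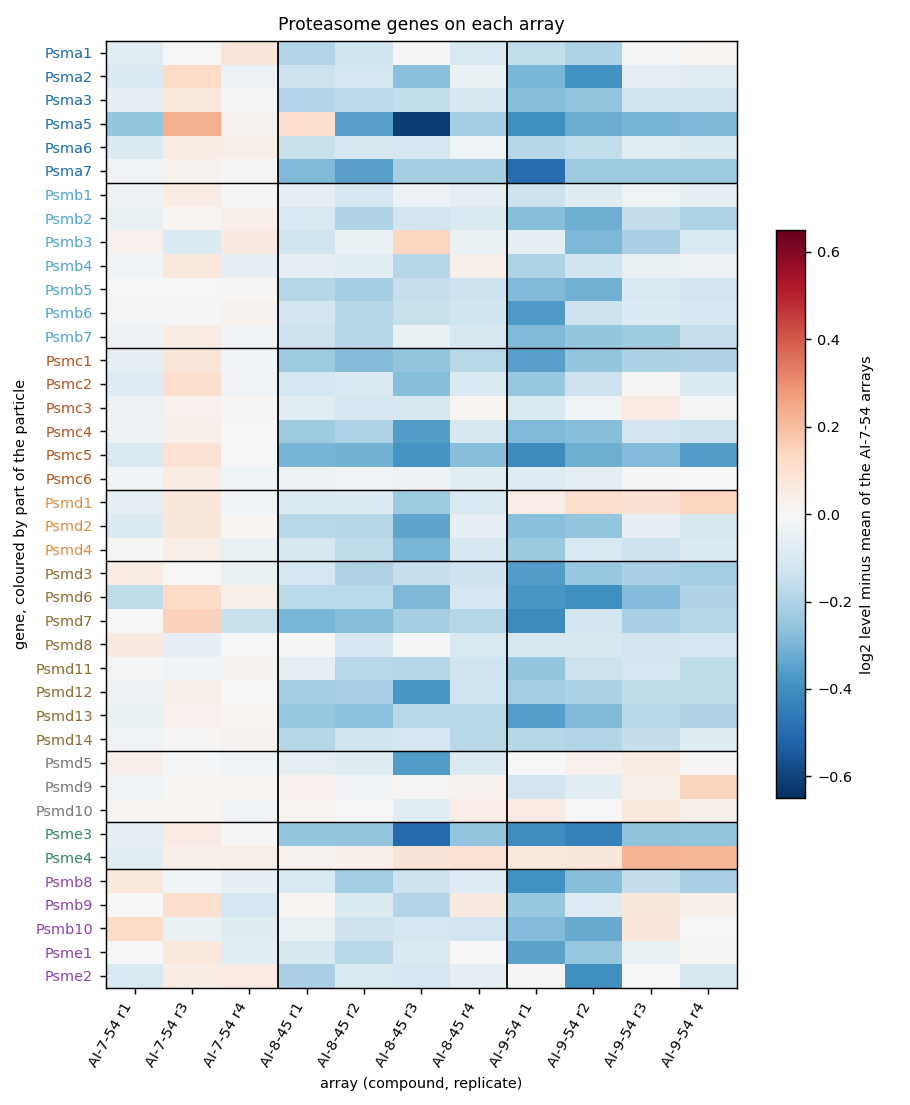
Heat map of the log2 level of each of the 40 genes (rows) in each of the 11 arrays (columns), less the gene's AI-7-54 mean, with upright black lines between the groups and level lines between parts of the particle (row names coloured by part). Most cells of AI-8-45 and AI-9-54 are below 0, and within AI-9-54 the columns of replicates 1 and 2 are the lowest for many genes.

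Within the core, 1 of 13 measured subunits fell with AI-8-45 and 5 of 13 with AI-9-54, at median differences of -0.13 and -0.20. Among all genes, 3.53% and 7.29% were lower, and in the test on bright genes alone 9.36% and 16.5%. The 1 call with AI-8-45 therefore does not set the core apart. Psma7, an alpha-ring subunit, read 10.66, 10.71 and 10.70 with AI-7-54. It read 10.40, 10.34, 10.47 and 10.47 with AI-8-45, and 10.19, 10.45, 10.45 and 10.46 with AI-9-54. Neither other group overlapped AI-7-54. The difference was -0.27 (SE 0.065, 16.9% lower, adjusted p = 0.0323) with AI-8-45 and -0.30 (SE 0.065, 18.8% lower, adjusted p = 0.00824) with AI-9-54.

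Psma3, also of the alpha ring, fell with AI-9-54, at -0.20 (adjusted p = 0.0225), and was at -0.16 with AI-8-45 (adjusted p = 0.113). The other alpha subunits did not pass in either comparison, with differences of -0.10 (Psma6) to -0.27 (Psma5) with AI-8-45 and -0.09 (Psma1) to -0.33 (Psma5) with AI-9-54. The Psma5 value rests on a dim probe set with a mean of 5.84, and a further probe set of the gene was at -0.01 and 0.10 in the same comparisons.

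Of the 7 constitutive beta subunits, 0 passed with AI-8-45 (at an unadjusted p under 0.05 with limma, 4 were lower and 0 higher) and 3 fell with AI-9-54. Among all genes, 7.29% were lower with AI-9-54. Psmb5, which carries the chymotrypsin-like activity and whose promoter stretch is printed above, read 12.32, 12.32 and 12.33 with AI-7-54. Its values were 12.13, 12.10, 12.17 and 12.18 with AI-8-45 and 12.03, 12.01, 12.22 and 12.20 with AI-9-54. All 8 lay under the AI-7-54 arrays. The difference was -0.17 with AI-8-45 (adjusted p = 0.111) and -0.20 with AI-9-54 (SE 0.056, 13.2% lower, adjusted p = 0.029). The AI-9-54 difference was -0.30 in replicates 1 and 2, where AI-7-54 has its replicate 1 only, and -0.11 in replicates 3 and 4.

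Psmb7, which carries the trypsin-like activity, fell with AI-9-54 by 0.23 on the log2 scale (adjusted p = 0.00672), and Psmb2, a structural beta subunit, by 0.24 (adjusted p = 0.00612). With AI-8-45 they were at -0.12 and -0.13 (adjusted p = 0.229 and 0.196). Psmb6, which carries the caspase-like activity, was at -0.15 with AI-8-45 (adjusted p = 0.238) and at -0.18 with AI-9-54 (adjusted p = 0.079). The remaining beta subunits, Psmb1, Psmb3 and Psmb4, lay between -0.02 and -0.17 in both comparisons and did not pass.

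Within the cap, leaving its assembly chaperones apart, 4 of 17 genes fell with AI-8-45 and 8 of 17 with AI-9-54, at a median of -0.17 in both. Among all genes, 3.53% and 7.29% were lower. Among the 6 ATPases of the base, which unfold the substrate, 2 fell with either compound, Psmc5 and Psmc1. Psmc5 read 9.32, 9.51 and 9.42 with AI-7-54. It read 9.11, 9.11, 9.03 and 9.14 with AI-8-45, and 9.01, 9.10, 9.14 and 9.05 with AI-9-54. The groups were fully separate from AI-7-54, and the differences were -0.32 (SE 0.053, 19.8% lower, adjusted p = 0.00441) and -0.34 (SE 0.053, 21.2% lower, adjusted p = 0.000915). The AI-8-45 difference was -0.21 in replicates 1 and 2, where AI-7-54 has its replicate 1 only, and -0.38 in replicates 3 and 4.

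Psmc1, whose promoter stretch with a CCAAT box is printed above, read 11.05, 11.20 and 11.10 with AI-7-54. Its levels were 10.88, 10.84, 10.86 and 10.94 with AI-8-45 and 10.77, 10.87, 10.91 and 10.92 with AI-9-54. The differences were -0.24 (adjusted p = 0.0179) and -0.25 (adjusted p = 0.00614), again with no overlap. Psmc4 lay just outside the threshold at -0.22 (adjusted p = 0.0641) and -0.21 (adjusted p = 0.0502). Psmc2 was at -0.14 and -0.12, Psmc3 at -0.07 and -0.02, and neither passed. Psmc6 did not pass either and was at -0.04 in both comparisons, with 95% intervals of -0.13 to 0.05 and -0.12 to 0.05.

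Of the scaffold and receptor subunits Psmd1, Psmd2 and Psmd4, 0 of 3 passed against AI-7-54 with either compound, although without the adjustment limma put 3 lower with AI-8-45 and 2 lower with AI-9-54. The ubiquitin receptor Psmd4 was at -0.17 (adjusted p = 0.128) and -0.14 (adjusted p = 0.145), and the scaffold Psmd2 at -0.19 (adjusted p = 0.2) and -0.17 (adjusted p = 0.173). The scaffold Psmd1 was at -0.13 with AI-8-45 (adjusted p = 0.19) and on the other side of 0 with AI-9-54, at 0.10 (adjusted p = 0.271).

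Of the 8 lid genes, which cover the path to the pore and trim ubiquitin off the substrate, 2 fell with AI-8-45 and 6 with AI-9-54, at medians of -0.17 and -0.21. The shares of all genes that were lower were 3.53% and 7.29%. Psmd12 and Psmd13 were at -0.24 (adjusted p = 0.0255) and -0.22 (adjusted p = 0.0246) with AI-8-45, and at -0.19 (adjusted p = 0.0368) and -0.26 (adjusted p = 0.00488) with AI-9-54. Psmd6 read 10.34, 10.63 and 10.54 with AI-7-54, 10.33, 10.33, 10.21 and 10.39 with AI-8-45, and 10.12, 10.10, 10.22 and 10.31 with AI-9-54. The AI-8-45 arrays overlapped AI-7-54 through its replicate 1, and the AI-9-54 arrays did not. The AI-9-54 difference was -0.32 (SE 0.074, 19.7% lower, adjusted p = 0.0123).

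Psmd3 fell with AI-9-54 by 0.26 on the log2 scale (adjusted p = 0.00304), Psmd11 by 0.17 (adjusted p = 0.0363) and Psmd14, the deubiquitinating subunit, by 0.15 (adjusted p = 0.0326). With AI-8-45 these 3 lid genes were at -0.15, -0.14 and -0.15 and did not pass. Psmd7, the inactive partner of Psmd14, was at -0.24 (adjusted p = 0.102) and -0.23 (adjusted p = 0.0722), and Psmd8 was at -0.06 and -0.11.

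The 3 chaperones that assemble the base of the cap, Psmd5, Psmd9 and Psmd10, gave 0 calls against AI-7-54 with either compound, at medians of -0.00 and 0.02. Without the adjustment limma put 1 of them lower with AI-8-45, Psmd5 at -0.15 (adjusted p = 0.28), and 0 with AI-9-54. Psmd9 and Psmd10 lay within 0.04 of 0 in both comparisons, with 95% intervals between -0.13 and 0.14.

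Of the 2 activators outside the cap and the immunoproteasome, 1 fell with either compound, where 3.53% and 7.29% of all genes were lower. Psme3, which forms the nuclear activator PA28 gamma, read 10.93, 11.05 and 10.996 with AI-7-54. It read 10.74, 10.74, 10.49 and 10.74 with AI-8-45, and 10.59, 10.55, 10.73 and 10.74 with AI-9-54. Its value was the same to all deposited digits, 10.7368, in 4 arrays, and neither group overlapped AI-7-54. It fell by 0.32 with AI-8-45 (SE 0.071, 19.7% lower, adjusted p = 0.021) and by 0.34 with AI-9-54 (SE 0.071, 21.0% lower, adjusted p = 0.00665) on the log2 scale. The AI-8-45 difference was -0.19 in replicates 1 and 2, where AI-7-54 has its replicate 1 only, and -0.41 in replicates 3 and 4.

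Psme4, the large activator PA200, read 10.73, 10.83 and 10.84 with AI-7-54, 10.82, 10.83, 10.88 and 10.89 with AI-8-45, and 10.87, 10.87, 11.02 and 11.01 with AI-9-54. It was the only one of the 40 genes with all AI-9-54 arrays above all AI-7-54 arrays, a pattern that 11.3% of all genes had. The difference was 0.15 (SE 0.053, adjusted p = 0.0953), and 0.06 with AI-8-45 (adjusted p = 0.698). With the replicate set in the model, 1 gene passed as higher with AI-9-54, Psme4, where 8.99% of all genes were higher.

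**Figure D3:**
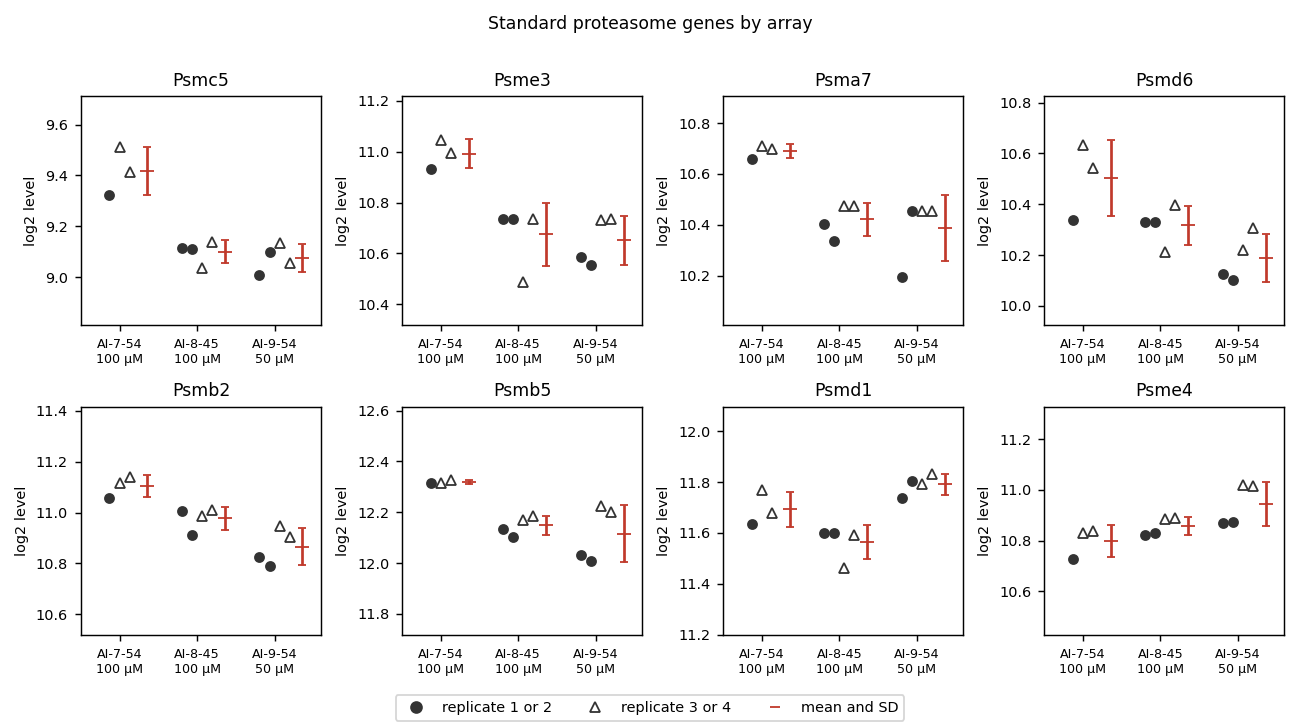
Log2 level of 8 proteasome genes in each array by compound and dose, circles for replicates 1 and 2, open triangles for replicates 3 and 4, and red bars for the mean and SD. Psmc5, Psme3, Psma7 and Psmb5 show no overlap between AI-7-54 and either other compound, Psmd1 is highest with AI-9-54, and for Psmb5 and Psme3 the AI-9-54 triangles lie above the circles.

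Of the 5 immunoproteasome genes, 0 passed with AI-8-45 and 1 fell with AI-9-54, at medians of -0.11 and -0.13. Among all genes, 3.53% and 7.29% were lower. Without the adjustment limma put 1 of the 5 lower and 0 higher with AI-8-45. Psmb8, the chymotrypsin-like subunit of the immunoproteasome, read 10.07, 9.98 and 9.95 with AI-7-54. It read 9.90, 9.77, 9.86 and 9.92 with AI-8-45, and 9.61, 9.72, 9.84 and 9.79 with AI-9-54. Both groups lay under AI-7-54. The difference was -0.14 with AI-8-45 (adjusted p = 0.275) and -0.26 with AI-9-54 (SE 0.060, 16.5% lower, adjusted p = 0.0119).

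Psmb9, which can replace Psmb6, read 9.17, 9.27 and 9.06 with AI-7-54, 9.18, 9.08, 8.97 and 9.22 with AI-8-45, and 8.92, 9.08, 9.24 and 9.20 with AI-9-54. All groups overlapped, with differences of -0.05 (95% interval -0.23 to 0.13) and -0.06 (95% interval -0.24 to 0.13). Psmb10, which can replace Psmb7, read 10.51, 10.35 and 10.32 with AI-7-54, 10.34, 10.26, 10.28 and 10.27 with AI-8-45, and 10.11, 10.06, 10.47 and 10.40 with AI-9-54. Of its AI-9-54 arrays, 2 lay below the AI-7-54 range and 2 within it, and the difference of -0.13 did not pass (adjusted p = 0.458). The activator genes Psme1 and Psme2 were at -0.09 and -0.12 with AI-8-45 and at -0.16 and -0.12 with AI-9-54, and did not pass.

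In AI-9-54 the immunoproteasome values differed by replicate set, which was not particular to them. There, replicates 3 and 4 averaged 0.35 above replicates 1 and 2 for Psmb10 and 0.27 above for Psme1. The difference was 0.22 for Psmb9, 0.15 for Psmb8 and 0.14 for Psme2. For the constitutive Psmb5, Psmb6 and Psmb7 it was 0.19, 0.15 and 0.08. In AI-8-45 the 5 immunoproteasome differences were, in that order, -0.03, 0.10, -0.03, 0.05 and 0.07. In AI-7-54, where replicate 1 alone stands for its set, they were -0.18, -0.00, -0.00, -0.11 and 0.15. Between AI-9-54 and AI-7-54, Psmb10 was at -0.42 in replicates 1 and 2 and at 0.10 in replicates 3 and 4. Psmb8, the gene that passed, was at -0.41 and -0.15 in these sets. The median over the 5 genes was -0.30 and -0.02. With the replicate set in the model, the median was -0.12, Psmb8 was at -0.25 (adjusted p = 0.01) and Psmb10 at -0.12 (adjusted p = 0.471).

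The balance between immunoproteasome and constitutive subunits was read as a log2 ratio within each array, which takes out any change shared by both. The 9 differences of 3 ratios in 3 comparisons were tested by exact two-sided permutation, whose smallest possible p is 0.0571 for 3 arrays against 4 and 0.0286 for 4 against 4. Psmb8 over Psmb5 differed by 0.04 with AI-8-45 and by -0.06 with AI-9-54 from AI-7-54 (exact permutation p = 0.4 for both). Psmb9 over Psmb6 differed by 0.09 (exact permutation p = 0.343) and 0.12 (exact permutation p = 0.114). Psmb10 over Psmb7 differed by 0.01 (exact permutation p = 0.971) and 0.10 (exact permutation p = 0.4). The last of these was -0.18 in replicates 1 and 2 and 0.31 in replicates 3 and 4. Psmb8 over Psmb5 with AI-8-45 was -0.036 in replicates 1 and 2. In that set AI-7-54 has its replicate 1 only. The lowest p of the 9 was 0.0857 (exact permutation; 0.514 after Benjamini-Hochberg), for Psmb8 over Psmb5 between AI-9-54 and AI-8-45 at -0.09. With so few arrays, no outcome of the 9 tests could have gone under 0.05 after the adjustment. The tests therefore cannot decide whether the balance shifted in favour of either form. The Psmb10 ratio turned direction between the sets.

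**Figure D4:**
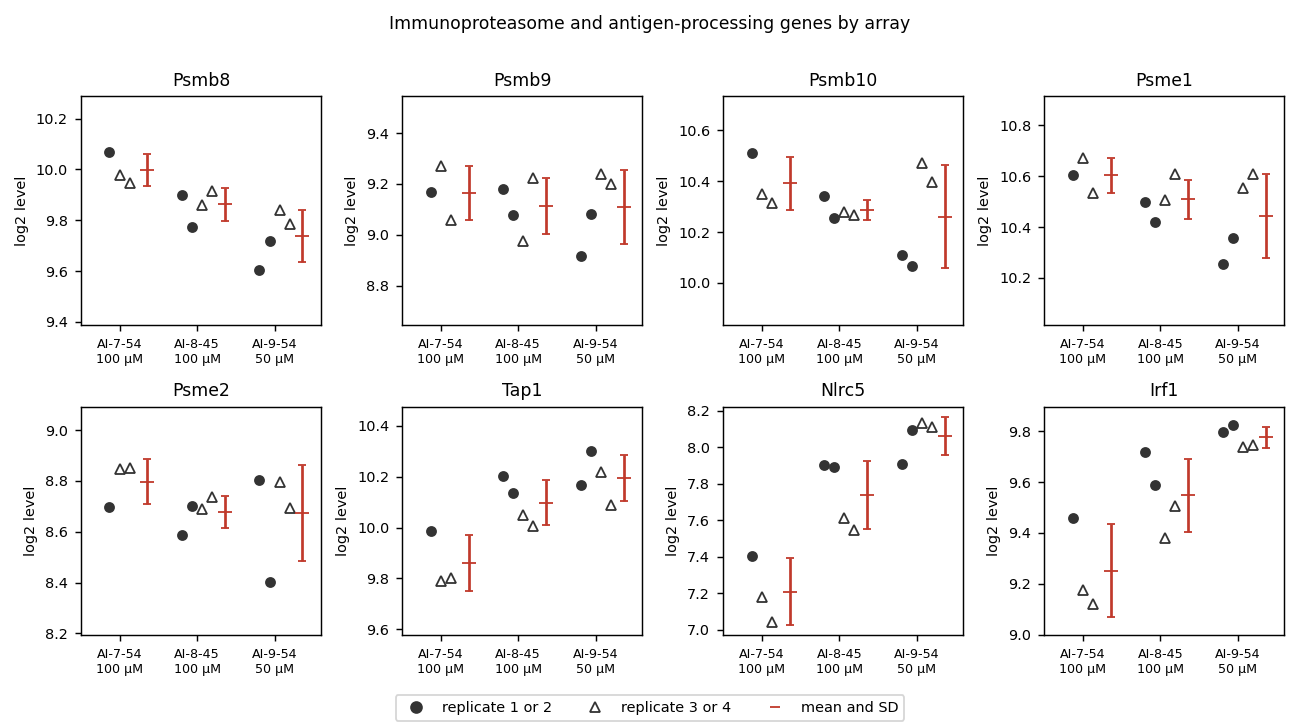
Log2 level of the 5 immunoproteasome genes and of Tap1, Nlrc5 and Irf1 in each array by compound and dose, circles for replicates 1 and 2, open triangles for replicates 3 and 4, and red bars for the mean and SD. Psmb8 lies lower and Nlrc5, Tap1 and Irf1 lie higher with AI-9-54 than with AI-7-54, while Psmb9 overlaps in all groups and Psmb10 splits by replicate set with AI-9-54.

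Psmb9 and Tap1, a subunit of the transporter that carries proteasome products into the endoplasmic reticulum, are divergent neighbours whose starts have 225 bases between them. That shared stretch is printed because Tap1 passed the test and Psmb9 did not. It is chr17:34187331-34187555 of GRCm38.p6, on the minus strand, the strand of Psmb9, with a CCAAT box in capitals that reads ATTGG on this strand.
Psmb9 to Tap1: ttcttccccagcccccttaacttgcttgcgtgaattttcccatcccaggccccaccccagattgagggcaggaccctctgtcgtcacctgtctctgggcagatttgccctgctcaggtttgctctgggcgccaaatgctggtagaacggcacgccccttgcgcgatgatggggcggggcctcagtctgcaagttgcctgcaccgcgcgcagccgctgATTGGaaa

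Tap1 read 9.99, 9.79 and 9.80 with AI-7-54, 10.20, 10.14, 10.05 and 10.01 with AI-8-45, and 10.17, 10.30, 10.22 and 10.09 with AI-9-54. It rose by 0.34 with AI-9-54 (SE 0.068, 26.2% higher, adjusted p = 0.00554) and was at 0.24 with AI-8-45 (adjusted p = 0.0644). Psmb9 overlapped in all groups, as above. The log2 ratio of Tap1 over Psmb9 was 0.39 higher with AI-9-54 than with AI-7-54, with no overlap (exact permutation p = 0.0571, the smallest that 3 arrays against 4 allow, and 0.171 after adjustment over 3 comparisons). With AI-8-45 it was 0.29 higher (exact permutation p = 0.114). This ratio was chosen after its values were seen.

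Other divergent neighbours with a start near that of a proteasome gene were listed after the data were seen. Ftsj3, a ribosomal RNA processing gene whose start has 100 bases between it and Psmc5, fell by 0.52 with AI-8-45 (adjusted p = 0.00196) and by 0.63 with AI-9-54 (adjusted p = 0.000164) on the log2 scale. Psmc5 itself fell by 0.32 and 0.34. Sirt3, with 84 bases between its start and that of Psmd13, rose by 0.38 with AI-9-54 (adjusted p = 0.0073), where Psmd13 fell by 0.26. Ss18l1 beside Psma7, Mrpl32 beside Psma2, Atg4a beside Psmd10 and Rnf31 beside Psme2 did not pass in either comparison, at -0.14 to 0.18.

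Between AI-9-54 at 50 µM and AI-8-45 at 100 µM, 0 of 40 proteasome genes fell and 1 rose (2.5%), against 0.6% of all genes lower and 0.708% higher. Without the adjustment, at p under 0.05, limma put 5 lower and 2 higher. The median difference was -0.02 and 27 of 40 genes (67.5%) were below 0. A difference that misses the threshold does not show that the compounds act alike. The 95% intervals of 33 of the 40 genes held 0, with a median half-width of 0.12, and across all of them the bounds ran from -0.35 (Psma5) to 0.33 (Psmd1). The median was -0.07 in replicates 1 and 2, with 34 of 40 genes below 0, and 0.034 in replicates 3 and 4, with 10 of 40 below 0. Of all genes, 47.5% and 51.6% were below 0 in these sets.

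Psmd1, the large scaffold subunit of the base, was the gene that rose. It read 11.60, 11.60, 11.46 and 11.59 with AI-8-45 and 11.74, 11.81, 11.79 and 11.83 with AI-9-54, with no overlap. Its AI-7-54 arrays, at 11.63, 11.77 and 11.68, lay above the AI-8-45 arrays and reached into the AI-9-54 range. The difference between AI-9-54 and AI-8-45 was 0.23 (SE 0.046, 17.1% higher, adjusted p = 0.0359). The call ended without AI-7-54 replicate 4, which enters through the shared spread, without any 1 of the 4 AI-8-45 arrays, and without AI-9-54 replicate 2, 3 or 4, at adjusted p = 0.0617 to 0.0949. With the replicate number in the limma model as a block, the call was lost too (adjusted p = 0.051). It also ended with equalized array medians (adjusted p = 0.0608), with only these groups in the fit (adjusted p = 0.0678), and within either replicate set (differences of 0.17 and 0.28, adjusted p = 0.367 and 0.167). Psmd5 also had all AI-9-54 arrays above all AI-8-45 arrays, at 0.17 (adjusted p = 0.278), and Psmd3 had all of them below, at -0.11 (adjusted p = 0.333). Such separation was found for 3.83% of all genes upward and 2.84% downward.

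A list of 9 genes, mostly assembly factors and with the inhibitor Psmf1, was also followed, of which 8 were measured. It holds Ecpas and Akirin2 too, which do not build the core. These averaged 10.58 and 10.72 with AI-7-54, 10.66 and 10.80 with AI-8-45, and 10.71 and 10.79 with AI-9-54. With AI-8-45 1 of 8 fell, with AI-9-54 3 of 8 fell, and 0 rose against AI-7-54 (without the adjustment limma put 0 and 1 higher). Among all genes, 3.53% and 7.29% were lower. Psmg2, which pairs with Psmg1 as a chaperone of the alpha ring, read 10.39, 10.47 and 10.40 with AI-7-54, 10.15, 10.06, 10.18 and 10.26 with AI-8-45, and 9.79, 9.85, 9.88 and 9.92 with AI-9-54. The 3 groups were fully separate. Psmg2 fell by 0.26 with AI-8-45 (adjusted p = 0.0149), by 0.56 with AI-9-54 (SE 0.054, 32.2% lower, adjusted p = 2.73e-05), and by 0.30 from AI-8-45 to AI-9-54 (adjusted p = 0.0132) on the log2 scale.

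Pomp, the maturation factor that completes the core and is degraded by it, read 10.17, 10.29 and 10.29 with AI-7-54, 10.03, 9.85, 10.11 and 9.99 with AI-8-45, and 9.64, 9.63, 9.89 and 9.91 with AI-9-54. It fell by 0.48 on the log2 scale with AI-9-54 (SE 0.082, 28.5% lower, adjusted p = 0.00174) and was at -0.25 with AI-8-45 (adjusted p = 0.103). Psmg1 fell by 0.34 with AI-9-54 (adjusted p = 0.00419) and was at -0.22 with AI-8-45 (adjusted p = 0.0738). Psmg3 and Psmg4, the other chaperone pair, were at -0.11 and -0.26 with AI-9-54 and did not pass. The inhibitor Psmf1 was at -0.00 and 0.05.

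**Figure D5:**
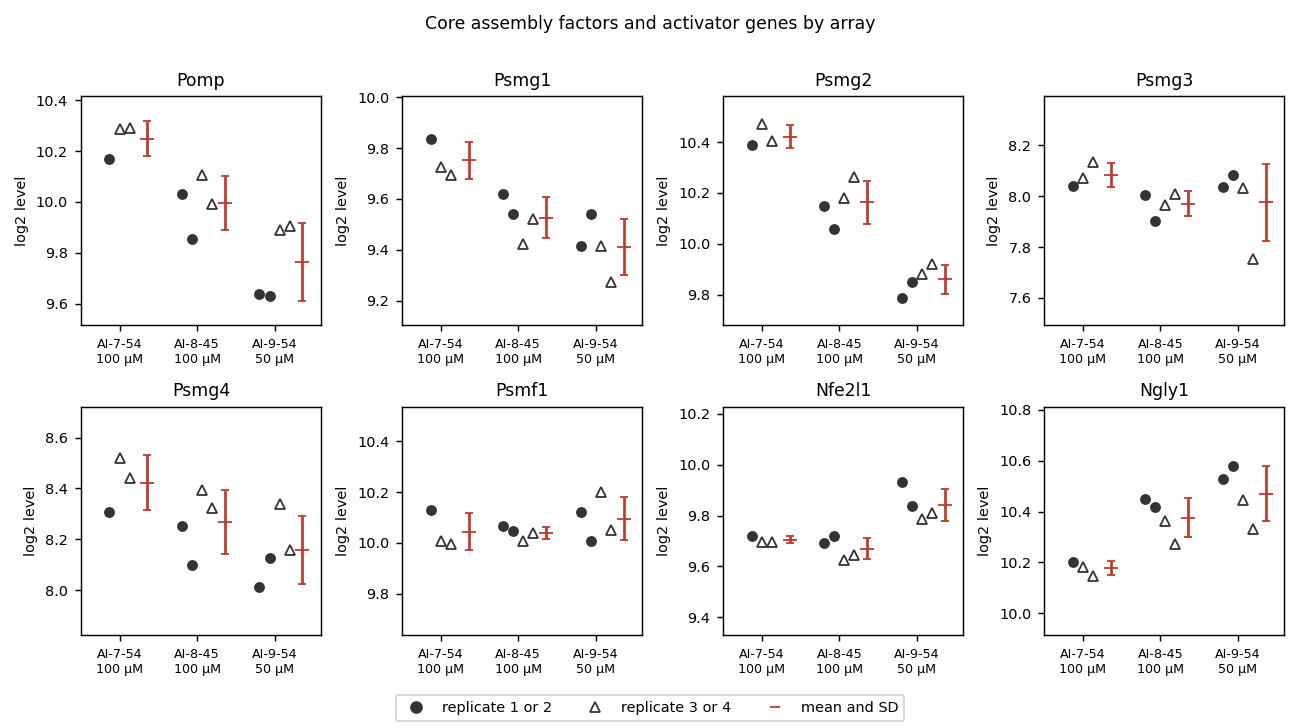
Log2 level of 6 core assembly and inhibitor genes and of Nfe2l1 and Ngly1 in each array by compound and dose, circles for replicates 1 and 2, open triangles for replicates 3 and 4, and red bars for the mean and SD. Psmg2 separates all 3 compounds, Pomp and Psmg1 are lower and Ngly1 higher with AI-9-54 than with AI-7-54, and Psmf1 overlaps in all groups.

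Of 6 measured further subunits and deubiquitinases, 2 fell with AI-8-45 and 2 with AI-9-54, where 3.53% and 7.29% of all genes were lower. The cap-bound deubiquitinases Usp14 and Uchl5 were at -0.16 (adjusted p = 0.0405) and -0.23 (adjusted p = 0.0179) with AI-8-45, and at -0.15 (adjusted p = 0.0282) and -0.14 (adjusted p = 0.0852) with AI-9-54. Sem1, a small lid subunit, fell by 0.23 on the log2 scale with AI-9-54 (adjusted p = 0.0111). Psmb11, the thymic cortical beta subunit, and Psma8, the testis alpha subunit, were dim, between 5.33 and 6.03 in all arrays. Of 7 shuttle factors and unfoldase genes, Rad23b, which carries ubiquitinated proteins to the cap, fell in both comparisons, by 0.18 (adjusted p = 0.02) and by 0.14 (adjusted p = 0.0389). Of 4 measured ubiquitin pathway genes, 0 passed, and without the adjustment limma put 1 lower, with AI-9-54.

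The Nfe2l1 list holds 7 genes, the factor, its relatives, its processing enzyme and its partners. With AI-8-45, 0 of 7 passed (without the adjustment 2 lower and 2 higher in limma), and with AI-9-54 2 rose and 0 fell (0 lower without the adjustment). Among all genes, 6.87% were higher with AI-9-54. Ngly1, the glycanase that activates Nfe2l1, rose by 0.29 (22.7% higher, adjusted p = 0.00654), and Mafg, a small partner protein, by 0.27 (20.3% higher, adjusted p = 0.00235). Nfe2l1 read 9.72, 9.70 and 9.70 with AI-7-54, 9.69, 9.72, 9.63 and 9.64 with AI-8-45, and 9.93, 9.84, 9.79 and 9.81 with AI-9-54. The AI-9-54 arrays lay above all others, at 0.14 over AI-7-54 (adjusted p = 0.0666) and 0.17 over AI-8-45 (adjusted p = 0.0806).

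Of 10 measured genes that work with the proteasome in class I antigen presentation, 1 rose with AI-8-45, and 3 rose and 1 fell with AI-9-54. Among all genes, 2.13% were higher with AI-8-45, and 6.87% were higher and 7.29% lower with AI-9-54. Nlrc5, the transactivator of class I antigen presentation genes, read 7.40, 7.18 and 7.04 with AI-7-54, 7.90, 7.89, 7.61 and 7.54 with AI-8-45, and 7.91, 8.10, 8.13 and 8.11 with AI-9-54. It rose by 0.53 (44.2% higher, adjusted p = 0.0115) and by 0.85 (SE 0.104, 80.6% higher, adjusted p = 0.00018). The class I heavy chain gene H2-K1 rose by 0.24 with AI-9-54 (adjusted p = 0.0076), and Calr, a chaperone of its folding, fell by 0.23 (adjusted p = 0.0111).

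Of 8 measured genes of interferon signalling, 2 rose with AI-8-45 and 5 with AI-9-54, and 0 fell (0 at an unadjusted p under 0.05 in limma). Among all genes, 2.13% and 6.87% were higher. Irf9 rose by 0.35 (adjusted p = 0.00682) and 0.41 (adjusted p = 0.000829), and Irf2 by 0.24 (adjusted p = 0.006) and 0.20 (adjusted p = 0.00776). Larger than the Irf2 rise with AI-9-54 were those of Irf7, from a mean of 7.38 with AI-7-54 to 7.70, and Ifngr2, from 9.53 to 9.81. Irf1 read 9.46, 9.17 and 9.12 with AI-7-54, 9.72, 9.59, 9.38 and 9.51 with AI-8-45, and 9.80, 9.83, 9.74 and 9.75 with AI-9-54. It rose by 0.53 with AI-9-54 (43.9% higher, adjusted p = 0.00153) and was at 0.30 with AI-8-45 (adjusted p = 0.0724). In the same comparison Psmb8 was at -0.26, Psmb9 at -0.06 and Psmb10 at -0.13. Between AI-9-54 and AI-8-45, Psmg2 was the only 1 of the 50 measured genes of these lists to pass, and without the adjustment limma put 2 lower and 6 higher.

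The calls against AI-7-54 differed in how far they rested on single arrays. With AI-8-45, Psmc5 alone passed with each of the 11 arrays left out in turn. Of the 6 calls, leaving out AI-7-54 replicate 3 ended 5 (adjusted p = 0.101 to 0.132), and leaving out AI-7-54 replicate 4 also ended 5 (adjusted p = 0.0608 to 0.107), which left 1 gene. Without AI-8-45 replicate 1 or 2, 3 genes were left, and without AI-7-54 replicate 1, 5 were left. The median of the 40 genes was -0.15 to -0.12 in all these cases. Calls were lost over all genes too. With every array kept, 782 of all genes were lower. Without AI-7-54 replicate 1, 3 or 4 the counts were 588, 358 and 402, and without AI-8-45 replicate 1 or 2 they were 622 and 555.

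With AI-9-54, 8 of 15 calls passed with each array left out, those of Psma7, Psmb2, Psmb7, Psmc1, Psmc5, Psmd3, Psmd13 and Psme3. Without AI-7-54 replicate 3, 9 genes passed, with the calls of Psma3, Psmb5, Psmd6, Psmd11, Psmd12 and Psmd14 ended (adjusted p = 0.0705 to 0.142). Leaving out AI-7-54 replicate 4 ended the same 6 calls (adjusted p = 0.0569 to 0.131), and 10 genes passed. Without AI-7-54 replicate 1 the calls of Psmb5, Psmb8, Psmd11, Psmd12 and Psmd14 ended. Without AI-9-54 replicate 1 or 2 those of Psma3, Psmb5, Psmd11, Psmd12 and Psmd14 did. Psmd12 also lost its call without AI-9-54 replicate 3 or 4 or AI-8-45 replicate 1, Psmd14 without AI-9-54 replicate 3, and Psmd11 without AI-9-54 replicate 4. Over all genes, 1616 were lower with every array kept. Without AI-7-54 replicate 1, 3 or 4 the counts were 1313, 1126 and 1137, and without AI-9-54 replicate 1 or 2 they were 1350 and 1347.

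The median kept its sign against AI-7-54 in each replicate set, although AI-7-54 has its replicate 1 only in the first. With AI-8-45, 37 of 40 genes were below 0 in replicates 1 and 2 and 37 in replicates 3 and 4, at medians of -0.11 and -0.14. With AI-9-54 the counts were 37 and 32, at medians of -0.18 and -0.12. Of all genes, 47.6% and 51.2% were below 0 with AI-8-45, and 44.6% and 54.6% with AI-9-54. With the replicate set in the model, 7 of the 40 fell with AI-8-45 and 16 with AI-9-54, against 5.19% and 9.21% of all genes.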

How the data were processed

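The deposited table holds log2 values per probe set and array, made by the authors with RMA and Partek 6.6 per the submitters' processing notes. The log2 scale was read from the values, which range from 3.23 to 13.8. RNA was isolated with RNeasy and amplified with the Ambion WT Expression kit, per the labels' protocols. Of 41345 probe sets, 23521 named 1 gene, 1814 several, and 16010 had no name here. Entrez identifiers gave current symbols for 23328 (GRCm38.p6). Each of 22180 genes took its probe set with the highest mean (1082 genes had several), with no filter on dim genes.

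All 11 arrays entered 1 fit with limma 3.58.1 in R 4.3.3 (8 residual degrees of freedom, prior 4.14). Two-sided p-values were adjusted by Benjamini-Hochberg within each of 3 comparisons, over every gene tested, with calls at an adjusted p under 0.05. The fit was tested on simulated data with independent noise for each gene and array. Those data held no replicate set and no correlation between genes, so the test does not cover either. The members and the gene lists were chosen with earlier results of these data known. Members called in any comparison, and the immunoproteasome genes with their constitutive counterparts, are given with values, other members by range. Of other lists, up to 3 called genes per comparison are named, and Nfe2l1, Pomp and Psmf1. Calr, Psmg3, Psmg4, Psma8, Psmb11 and the divergent neighbours were named after their values were seen. Alternative settings covered scaling, filters, probe set rules, the prior, array weights, the replicate number, the replicate set and omitted arrays. Replicate numbers did not pair samples: deviations of 10 same-numbered pairs correlated at -0.02 to 0.45. Figures used matplotlib 3.10.9 in Python 3.11.15.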

Additional observations from a re-analysis of the deposited data

Results flagged for a closer look

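In groups of 4 arrays, 5 of 80 gene and group combinations of the 40 proteasome genes had 1 array far from the other 3 (by Dixon's criterion). Chance gives about 4 if values are untied and independent, which does not hold for genes read on the same arrays. Psma7 read 10.19 in AI-9-54 replicate 1 and 10.45 to 10.46 in the others. The remaining 4 all concerned AI-8-45 replicate 3, on the low side. It read 10.44 for Psmc2 (others 10.60 to 10.62), 11.46 for Psmd1 (others 11.59 to 11.60), 10.23 for Psmd5 (others 10.50 to 10.54) and 10.49 for Psme3 (others 10.74). The other 3 Psme3 values were identical at 10.7368, so any different value in the remaining array would have been flagged. Without that array all 6 calls between AI-8-45 and AI-7-54 were kept, and the call of Psmd1 between AI-9-54 and AI-8-45 ended (limma adjusted p = 0.0818).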

How the results depend on the processing

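The median difference of the proteasome genes kept its sign against AI-7-54 under all alternatives run. Between AI-8-45 and AI-7-54, 1255 of all genes were called, 1949 with the replicate set in the model, 2 in replicates 1 and 2 alone and 613 in replicates 3 and 4 alone, sets that leave 1 or 2 AI-7-54 arrays. Proteasome genes called lower numbered 0 and 1 in these sets. Between AI-9-54 and AI-7-54, 593 of all genes and 0 proteasome genes were called in replicates 1 and 2, and 4 proteasome genes were lower in replicates 3 and 4. In the same comparison over all arrays, 1 proteasome gene (Psme4) was higher with quantile normalization, with the replicate block and with the replicate set. Between AI-9-54 and AI-8-45, 290 of all genes were called, 436 among genes above the median level, 517 with the replicate block, 141 with only the groups compared, 816 with the replicate set, and 6 and 143 within the sets. Psmd1 was not called, so 0 were higher, with equalized array medians, the replicate block, only the groups compared, or either set. The median there was 0.034 in replicates 3 and 4. Psmb8 over Psmb5 was -0.036 between AI-8-45 and AI-7-54 in replicates 1 and 2. Psmb10 over Psmb7 was -0.18 and 0.31 between AI-9-54 and AI-7-54, and -0.10 and 0.28 between AI-9-54 and AI-8-45, in replicates 1 and 2 and in 3 and 4. The causes were not tested. Under the replicate block, proteasome genes lower were 6, 12 and 0, and all genes called 1408, 3297 and 517; the numbers share no stated batch.

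With 1 array left out, all genes called ranged from 540 to 1229, 2103 to 3290 and 128 to 257 in the 3 comparisons in this order. Proteasome genes lower ranged from 1 to 7, 9 to 16 and 0 to 0, and higher from 0 to 0, 0 to 0 and 0 to 1. Their medians ranged from -0.15 to -0.12, -0.20 to -0.14 and -0.05 to 0.01. Psmb8 over Psmb5 ranged from 0.01 to 0.07, -0.09 to -0.02 and -0.12 to -0.07, Psmb9 over Psmb6 from 0.03 to 0.15, 0.06 to 0.18 and -0.02 to 0.06, and Psmb10 over Psmb7 from -0.03 to 0.09, 0.03 to 0.17 and 0.02 to 0.14. Of 1320 gene results with 1 array left out, 1258 kept direction and side of the threshold, 57 lost and 5 gained a call. Of 1557 under other alternatives the counts were 1482, 53 and 22.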
